A study of Mus musculus with 2 samples.

Results

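The 10 genes described here encode antagonists and feedback inhibitors of WNT signaling, namely Dkk4, Wif1, Notum, Axin2, Nkd1, Znrf3, Kremen2, Rnf43, Sfrp1 and Sfrp2. They were chosen by symbol, with earlier results of these data known. All 10 are listed among the 27998 genes of the E12.0 library and the 31053 genes of the E9.5 library, 27514 of which occur in both. The E12.0 library holds mandibular epithelium of 6 pooled embryos of 1 litter, peeled from the mesenchyme and sorted by FACS for GFP. The E9.5 library holds unsorted cells of whole mandibular arches, pooled from 8 embryos of 1 litter, with epithelium, mesenchyme and endoderm. Embryos of both stages were K14Cre;R26mT/mG and untreated. In this genotype a Keratin 14-driven Cre switches the reporter from membrane tdTomato to membrane GFP, so the E12.0 sort holds only cells in which Cre had acted. With 1 library per stage there was no replicate, cells are not replicates, and no test between groups was made.

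WNT ligands bind Frizzled receptors together with LRP co-receptors, which stabilizes beta-catenin and lets TCF/LEF factors activate target genes. Many of these targets encode inhibitors that act back on the pathway at successive steps, outside the cell, at the receptor and in the cytoplasm. In the embryonic jaw, WNT signaling is needed for tooth development, and the initiation knot, an early signaling center of the tooth placode, is known for Shh expression.

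Among the secreted members, Dkk4 binds LRP co-receptors, Wif1, Sfrp1 and Sfrp2 bind WNT ligands, and Notum removes the lipid that WNT ligands need for activity. Kremen2 is a transmembrane receptor that acts with DKK proteins on LRP co-receptors. Znrf3 and Rnf43 are transmembrane ubiquitin ligases that clear Frizzled receptors from the cell surface. Inside the cell, Axin2 is a scaffold of the complex that degrades beta-catenin, and Nkd1 binds Dishevelled. In the GENCODE annotation of GRCm38, Dkk4 (ENSMUSG00000031535) lies on chromosome 8 from 22624043 to 22627547, Nkd1 (ENSMUSG00000031661) from 88521354 to 88594884 and Sfrp1 (ENSMUSG00000031548) from 23411502 to 23449632 on the same chromosome. Notum (ENSMUSG00000042988) lies on chromosome 11 from 120653788 to 120661175, Axin2 (ENSMUSG00000000142) from 108920349 to 108950783, Znrf3 (ENSMUSG00000041961) from 5276324 to 5444847 and Rnf43 (ENSMUSG00000034177) from 87662722 to 87735539 on that chromosome. Wif1 (ENSMUSG00000020218) lies on chromosome 10 from 121033960 to 121100650, Kremen2 (ENSMUSG00000040680) on chromosome 17 from 23741197 to 23745833 and Sfrp2 (ENSMUSG00000027996) on chromosome 3 from 83766321 to 83774316. Counts were made per gene, so no exon or transcript was told apart.

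Each UMI marks 1 transcript molecule, and a level in CPM gives how many UMIs a gene had per 1000000 UMIs of the cells of a group. Values in brackets are exact 95% intervals (Poisson for a CPM, conditional binomial for a ratio of CPM or its log2, Clopper-Pearson for a share of cells) and cover counting error only. The interval of a ratio takes its counts as separate, so it is not exact where the groups share cells. That of a co-detection ratio is described with those values and is not exact either. As no test was possible, a gene was called higher or lower when its CPM, with 1 CPM added to both groups, differed by at least 1.5-fold and was at least 5 CPM in one of the groups. Genes under 5 CPM in both groups were counted as not measured in that comparison. Because deeper cells show more genes, shares of positive cells are also given from cells thinned to 1 number of UMIs.

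After the filter of 200 to 5500 genes and at most 10% mitochondrial UMIs, 11355 of 11663 E12.0 barcodes and 12744 of 14293 E9.5 barcodes were kept. They held 77936364 and 166191431 UMIs, with medians of 6349 and 13460.5 UMIs per cell, and 51 barcode sequences occurred in both libraries. In the E12.0 cells the 7 epithelial markers summed to 1700 CPM and the 10 mesenchymal markers to 34.9 CPM. The 5 endothelial markers summed to 2.05 CPM, with Pecam1 at 1.23 CPM, Esam at 0.821 CPM and no UMI of Kdr, Emcn or Cdh5. Scrublet called 5.82% of the E12.0 and 2.60% of the E9.5 cells doublets, and these were kept.

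At E12.0, cells were grouped by UMIs of marker genes, which are not results here. The Shh gate (at least 2 Shh UMIs) held 258 cells, the Foxa gate (at least 1 UMI of Foxa1 and Foxa2 together) 494, the Irx1 gate (at least 1) 1617, the Cxcl14 gate (at least 3) 5107 and the Dmrt2 gate (at least 1) 617 cells. No gate was passed by 3824 cells, 1 gate by 7009 and more than 1 gate by the rest. The Shh gate shared 84 cells with the Irx1 gate, 74 with the Cxcl14 gate and 24 with the Foxa gate. Of the other 5 initiation knot markers (Fgf20, Gad1, Sp5, Proser2 and Bmp2), all had UMIs in the Shh gate, and their sum was 461 CPM there against 29.5 CPM in all kept cells. The dental markers summed to 949 CPM in the Irx1 gate against 407 CPM in all kept cells, and the anterior markers to 1379 CPM in the Cxcl14 gate against 758 CPM. The posterior markers reached 489 CPM in the Dmrt2 gate and 243 CPM in the Foxa gate against 123 CPM in all kept cells, and the tongue markers are the genes that set the Foxa gate, so that name could not be checked. Median depth was 7061.5 UMIs per cell in the Shh gate, 7534 in the Foxa gate, 7421 in the Irx1 gate, 6488 in the Cxcl14 gate, 6965 in the Dmrt2 gate and 5791 in cells of no gate. Each gate is thus deeper than the ungated cells, and its share of called doublets, between 9.34% and 13.2%, was above their 2.20%. In the ungated cells the dental markers summed to 416 CPM, the posterior markers to 177 CPM and 5 periderm markers to 199 CPM, each above all kept cells. Their anterior markers, at 248 CPM, and initiation knot markers, at 15.0 CPM, were below. Ungated cells are thus mixed, and a ratio to them is not a ratio to a separate cell type. Leaving out called doublets changed the calls of members in 1 of the 7 comparisons below, that of the Foxa gate, where Nkd1 and Znrf3 were then also lower.

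The secreted inhibitors Dkk4, Wif1 and Notum were concentrated in the few cells with Shh transcripts. In the Shh gate, Wif1 had 251 UMIs, 121 CPM (106 to 137), and in all other kept cells 104 UMIs, 1.37 CPM (1.12 to 1.66), an 88.2-fold difference and a log2 ratio of 6.46 (6.13 to 6.81). Notum had 196 UMIs, 94.4 CPM (81.6 to 109), against 117 UMIs, 1.54 CPM (1.28 to 1.85), a log2 ratio of 5.94 (5.60 to 6.28). For Dkk4 the counts were 117 UMIs, 56.4 CPM (46.6 to 67.5), against 125 UMIs, 1.65 CPM (1.37 to 1.96), a log2 ratio of 5.10 (4.72 to 5.47). The Shh gate made up 2.27% of the kept cells and held 70.7% of all Wif1 UMIs, 62.6% of Notum UMIs and 48.3% of Dkk4 UMIs. Single cells of the gate reached 16 UMIs of Wif1, 10 of Dkk4 and 6 of Notum.

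The members that act at the receptor or inside the cell were also higher in the Shh gate, by far smaller folds. Axin2 was measured at 123 CPM (108 to 139) in the gate and 40.0 CPM (38.6 to 41.4) in the other cells, a 3.07-fold difference. Nkd1, at 24.1 CPM (17.9 to 31.7) against 8.50 CPM (7.86 to 9.18), differed 2.83-fold. For Kremen2 the log2 ratio was 0.81 (0.65 to 0.97) and for Rnf43 0.74 (0.45 to 1.01). Znrf3 stayed under the criterion at 109 CPM (95.6 to 125) against 79.5 CPM (77.5 to 81.5), a log2 ratio of 0.46 (0.26 to 0.65). The SFRP genes went the other way. Sfrp1 had 5.78 CPM (2.99 to 10.1) in the gate, from 12 UMIs, and 21.3 CPM (20.3 to 22.4) outside, a log2 ratio of -1.88 (-2.84 to -1.07), and Sfrp2 was at 13.0 CPM (8.57 to 18.9) in the gate and 27.3 CPM (26.1 to 28.5) outside, a log2 ratio of -1.07 (-1.68 to -0.52).

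In all, 7 of the 10 members were called higher in the Shh gate, 2 lower and 1 neither, where 9.04% of the 10469 genes measured in this comparison were higher and 7.75% lower. The median log2 ratio was 1.10 over the members and -0.02 over all genes measured. From this same library, the paper names Dkk4 beside Shh as a known initiation knot marker. It also uses Notum to mark taste bud precursor cells, a group it first noticed by Shh. The count of 7 and the median are therefore not independent of how the members were chosen. The same 9 calls were made without called doublets, with cells weighted equally and with thinned cells. Znrf3 also passed the criterion when the gate required 1 more Shh UMI. The 10 mesenchymal markers summed to 24.6 CPM in the gate, with Col3a1, Alx4, Meox1, Prrx1 and Pdgfra at 0, while the 5 periderm markers summed to 373 CPM against 167 CPM in all kept cells, and the part of the periderm markers' cells in these values was not tested.

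**Figure D1:**
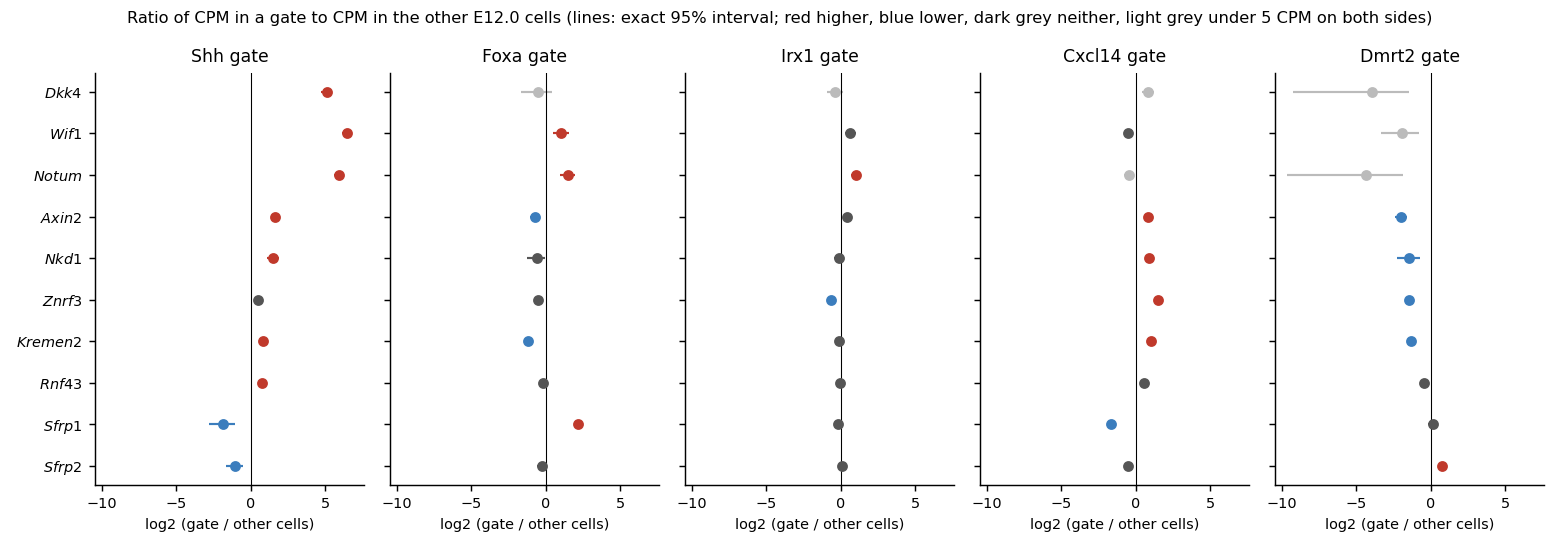
Ratios of the 10 members between the cells of each E12.0 gate and all other kept cells, on a log2 axis, with points for the ratio of CPM and bars for the exact 95% interval of the ratio of counts. Dkk4, Wif1 and Notum lie above 5 in the Shh gate, Sfrp1 at 2.13 in the Foxa gate, and Axin2, Nkd1, Znrf3 and Kremen2 above 0 in the Cxcl14 gate and below 0 in the Dmrt2 gate.

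Levels followed the number of Shh UMIs per cell, which was split into 0 (10888 cells), 1 (209), 2 to 3 (123), 4 to 7 (74) and 8 or more (61). Wif1 went from 1.08 to 15.5, 40.5, 153 and 236 CPM over these bins. Notum went from 1.16 to 20.0, 50.6, 111 and 158 CPM, and Dkk4 from 1.51 to 8.39, 25.3, 63.7 and 106 CPM. All 3 were thus higher in each successive bin, and their intervals in the top bin, 196 to 280 CPM for Wif1, lay above those of the bin with 2 to 3 UMIs. Axin2 also climbed at each step, from 39.4 to 67.8, 75.0, 131 and 202 CPM. Nkd1 stayed between 8.46 and 10.3 CPM in the first 3 bins and had 29.1 and 44.5 CPM in the last ones. Kremen2, Rnf43 and Znrf3 showed a flatter course, with Znrf3 at 79.4 CPM without Shh UMIs, 140 CPM at 4 to 7 UMIs and 109 CPM at 8 or more. Sfrp1 declined from 21.5 CPM to 1.82 CPM at 4 to 7 UMIs and 3.71 CPM at 8 or more. Among the 61 cells with 8 or more Shh UMIs, whose median depth was 7437 UMIs against 6327 in cells without Shh UMIs, 45 had a UMI of Notum, 36 of Wif1, 20 of Dkk4 and 46 of Axin2.

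**Figure D2:**
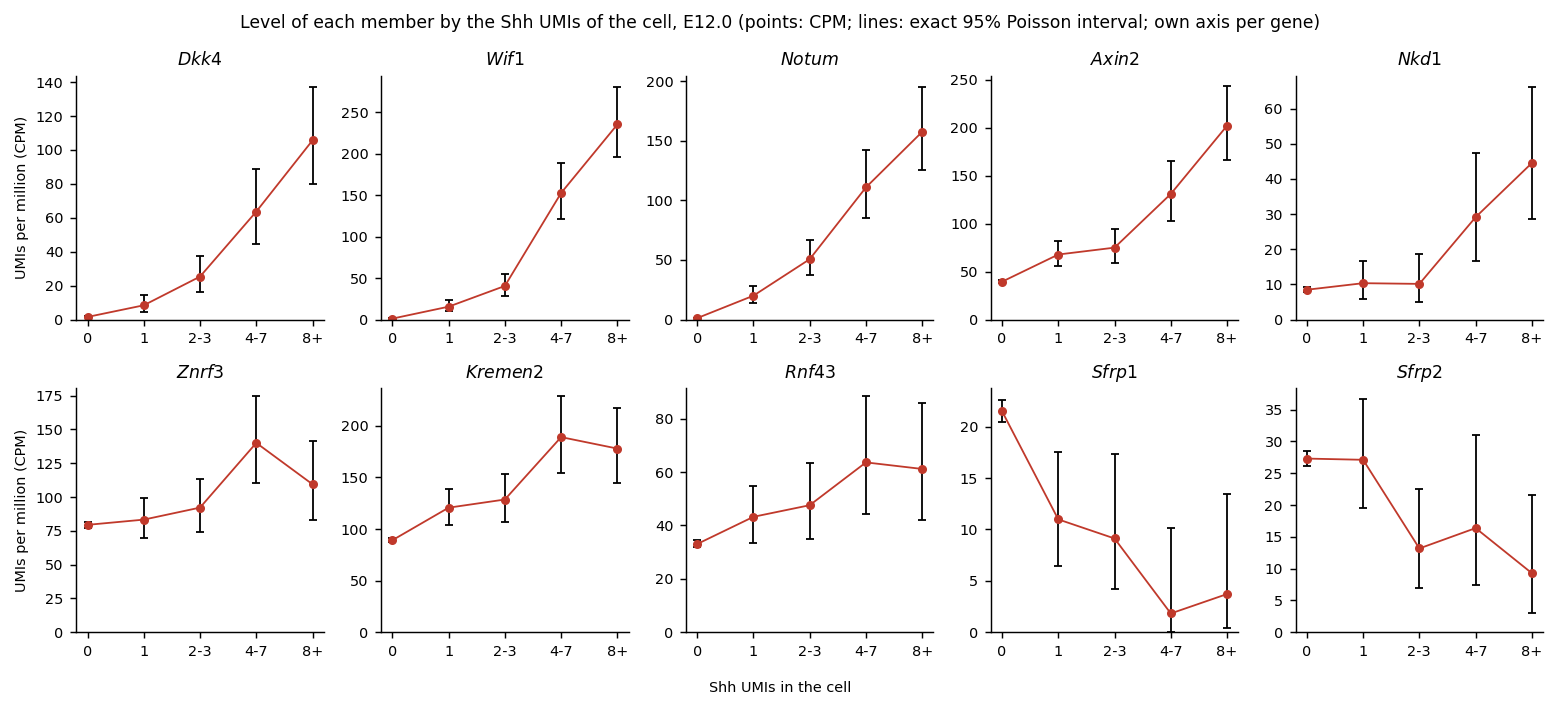
CPM of each member in E12.0 cells grouped by their number of Shh UMIs (0, 1, 2 to 3, 4 to 7, 8 or more), with points for the CPM of the summed cells and bars for the exact 95% Poisson interval. Dkk4, Wif1, Notum and Axin2 are higher in each successive bin, and Sfrp1 is lowest in the last 2 bins.

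In shares of cells, 41.1% (35.0 to 47.4) of the Shh gate had a Notum UMI, 30.6% (25.1 to 36.6) a Wif1 UMI and 20.2% (15.4 to 25.6) a Dkk4 UMI. The corresponding shares were 0.575%, 0.445% and 0.0523% in the ungated cells, the lowest class for Dkk4. After thinning to 4100 UMIs, the gate had 28.9%, 25.3% and 14.5%, and the ungated cells 0.340%, 0.310% and 0.0310%. Of the 258 gated cells, 122 had no UMI of any of the 3 genes, 61 had 1 of them, 49 had 2 and 26 had all 3. In the ungated cells 39 of 3824 had 1 of the 3 genes, 1 had 2 and none had all 3. Read as at most 3 cells, that 0 allows up to 0.0785% of cells with a UMI of all 3 at this depth, which does not limit the share of cells that express them.

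Outside the Shh gate the 3 genes were spread over the other gates in unequal shares. The Cxcl14 gate held 44.98% of all kept cells, the Irx1 gate 14.2% and cells of no gate 33.7%. Of 132 cells with a Dkk4 UMI, 80 lay outside the gate, and 75 of these passed the Cxcl14 gate while 2 passed none. Wif1 had 82 positive cells outside, of which 38 passed the Irx1 gate, 19 the Cxcl14 gate and 17 none. Notum had 92, of which 43 passed the Cxcl14 gate, 24 the Irx1 gate and 22 none. Over all kept cells 59 had a UMI of 2 of the 3 genes and 28 of all 3, so most, though not all, cells with more than 1 of them lay in the Shh gate. A single Shh UMI was present in 8 of these Dkk4 cells, 14 of the Wif1 cells and 16 of the Notum cells. In the ventral gate (at least 2 UMIs of Gjb6, 703 cells, 691 of them also in the Cxcl14 gate), Dkk4 reached 6.92 CPM (4.87 to 9.54), 1.72-fold (1.17 to 2.49) its level in the Cxcl14 gate. Wif1 went the opposite way, with 0.748 CPM (0.204 to 1.92) from 4 UMIs, a log2 ratio of -2.32 (-4.22 to -0.93). In cells with at least 2 UMIs of the periderm genes Grhl3 and Pkp1 together (366 cells), Wif1 had 29.3 CPM (23.3 to 36.3) and Notum 17.6 CPM (13.1 to 23.2), but only 7 of the Wif1 cells and 4 of the Notum cells outside the Shh gate belonged to this group.

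The RefSeq promoter windows of GRCm38.p6, which run from 250 bases before to 50 bases after a start site, held 7 start sites of 6 members (Wif1, Axin2, Nkd1, Kremen2, Rnf43 with 2 sites, and Sfrp2). Dkk4, Notum, Znrf3 and Sfrp1 had no entry. The upstream 250 bases of Wif1 (chr10:121033754-121034003, plus strand) and Axin2 (chr11:108920099-108920348, plus strand) are shown because both genes were higher in the Shh gate and climbed with Shh UMIs while their folds differed widely. Capitals mark a match to the letters CTTTG, or CAAAG on the other strand, the core of the TCF/LEF motif.
Wif1: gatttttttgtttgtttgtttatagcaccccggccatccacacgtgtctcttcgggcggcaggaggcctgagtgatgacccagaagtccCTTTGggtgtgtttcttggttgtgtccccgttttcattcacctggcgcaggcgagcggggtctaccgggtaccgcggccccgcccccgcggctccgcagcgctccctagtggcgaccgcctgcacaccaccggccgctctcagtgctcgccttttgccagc
Axin2: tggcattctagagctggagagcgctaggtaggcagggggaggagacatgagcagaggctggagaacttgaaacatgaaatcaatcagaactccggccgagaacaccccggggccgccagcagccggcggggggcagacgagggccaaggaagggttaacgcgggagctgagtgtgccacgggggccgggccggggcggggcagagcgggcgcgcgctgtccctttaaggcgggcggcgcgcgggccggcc
The longer motifs ATCAAAG and TTCAAAG, which contain the core, matched on either strand in 0 of the 7 member windows and in 2842 of 32851 windows of the whole table (8.65%). The core, which was searched after that result was seen, matched once, 161 bases before the Wif1 start site, in 1 of the 7 member windows, and occurs in 48.6% of all upstream windows. These counts describe the letters of these windows only.

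The Cxcl14 gate, the anterior cells, differed from the rest in the receptor-level and intracellular members. Znrf3 was measured at 121 CPM (118 to 125) in the gate and 43.3 CPM (41.3 to 45.4) in the other cells, a log2 ratio of 1.49 (1.41 to 1.57). Kremen2, at 124 CPM (120 to 128) against 62.5 CPM (60.1 to 65.0), had a log2 ratio of 0.99 (0.92 to 1.06). Axin2 and Nkd1 were also called higher, with log2 ratios of 0.85 (0.75 to 0.95) and 0.89 (0.66 to 1.12). Rnf43, at 40.5 CPM (38.4 to 42.6) against 27.9 CPM (26.3 to 29.6), stayed just under the criterion with a 1.45-fold difference. Sfrp1 was lower, at 9.63 CPM (8.65 to 10.7) against 31.0 CPM (29.3 to 32.7), a log2 ratio of -1.69 (-1.86 to -1.51). Of 8 members measured, 4 were higher and 1 lower, where 3.86% of 10267 genes were higher and 4.88% lower. The paper reports Axin2, Znrf3, Kremen2, Nkd1 and Sostdc1 as upregulated in the anterior epithelium of this same library. It used cell clusters and another cutoff than the gate and criterion here. Sostdc1, which is not a member, did not pass the criterion in the Cxcl14 gate. The count of 4 is therefore not independent of how the members were chosen. The folds of Axin2, Nkd1 and Kremen2 were under 2, so with that criterion 2 members remained, Znrf3 and Sfrp1. Dkk4 and Notum were under 5 CPM on both sides, at 4.01 CPM (3.39 to 4.72) and 3.39 CPM (2.82 to 4.04) in the gate.

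Within the anterior cells the ventral gate stood higher still for several of these members. Against the whole Cxcl14 gate, which contains most of the same cells, Nkd1 was 1.91-fold (1.54 to 2.34) higher at 22.5 CPM (18.6 to 26.8). Because of the shared cells, the intervals of the ratios in this comparison are not exact. Kremen2 reached 186 CPM (174 to 198), a log2 ratio of 0.58 (0.48 to 0.68), and Axin2 81.8 CPM (74.3 to 89.8), 1.48-fold (1.33 to 1.65). Sfrp1, lower in the Cxcl14 gate as a whole, had 18.7 CPM (15.2 to 22.8) in the ventral gate, 1.94-fold (1.54 to 2.43). Znrf3 reached 158 CPM (148 to 169), the highest of the gates examined. Counted per cell over the 5 genes Axin2, Nkd1, Znrf3, Kremen2 and Rnf43, the ventral gate had a mean of 2.22 genes with a UMI, close to the 2.19 of the Shh gate, while the Dmrt2 gate had 0.689 and the ungated cells 0.764. All 5 genes had a UMI in 14 of 703 ventral, 6 of 258 Shh-gated and 0 of 3824 ungated cells, and these means follow depth as well as level.

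**Figure D3:**
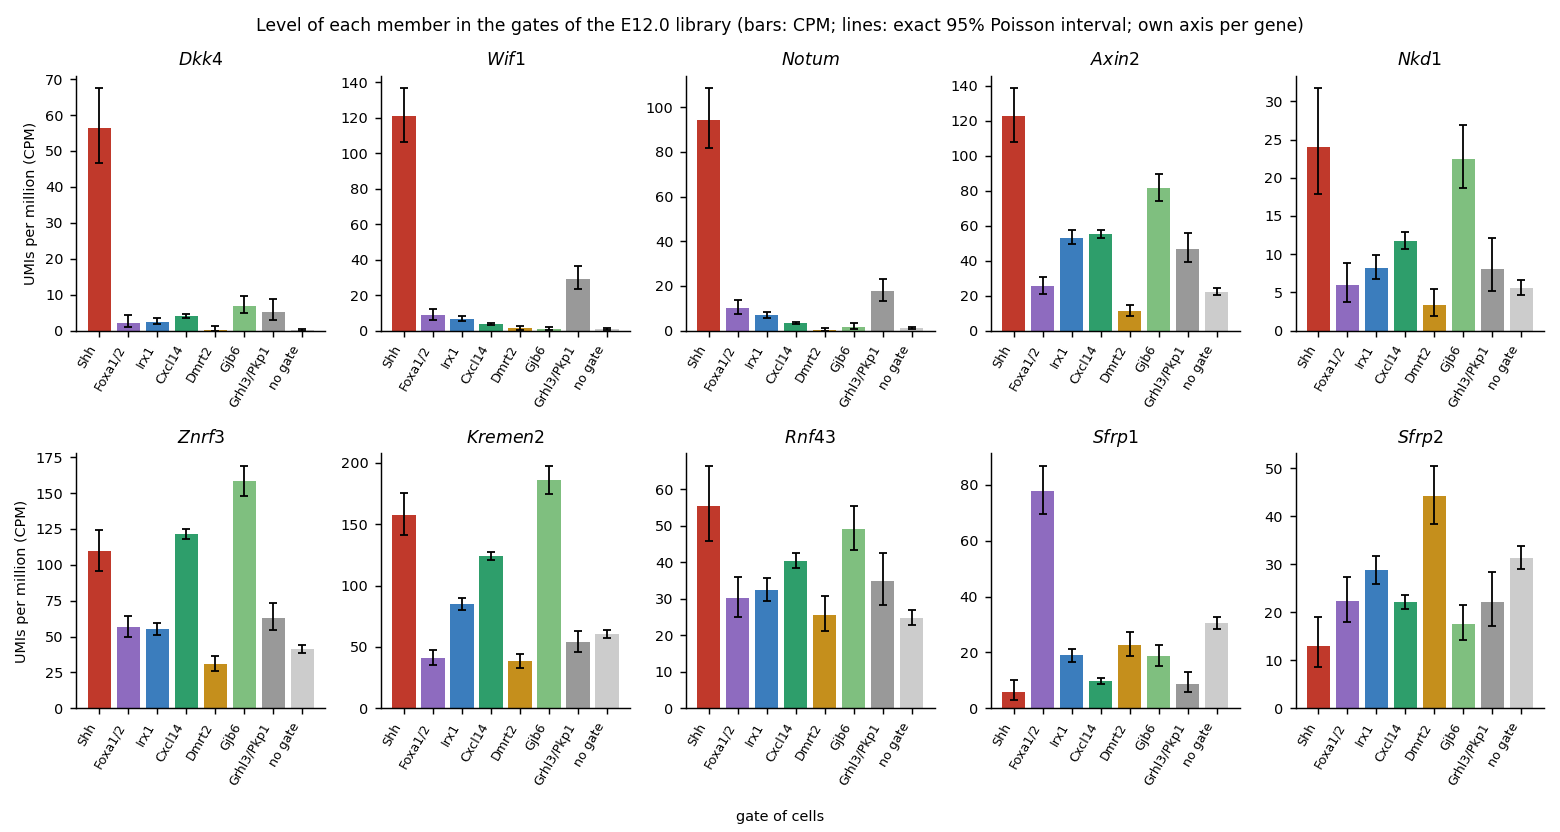
CPM of each member in the E12.0 gates, in the ventral (Gjb6) and periderm (Grhl3 and Pkp1) gates and in cells of no gate, as bars from 0 with exact 95% Poisson intervals. Dkk4, Wif1 and Notum stand out in the Shh gate, Znrf3 and Kremen2 in the ventral gate, Sfrp1 in the Foxa gate and Sfrp2 in the Dmrt2 gate.

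In the Foxa gate the largest difference was that of Sfrp1. Sfrp1 had 77.7 CPM (69.4 to 86.8) in the gate and 17.8 CPM (16.8 to 18.8) in the other cells, a log2 ratio of 2.13 (1.95 to 2.31), with a UMI in 36.0% (31.8 to 40.4) of the gated and 4.26% (2.15 to 7.50) of the Shh-gated cells, or 23.4% and 2.01% after thinning. Kremen2 was lower, at 41.1 CPM (35.1 to 47.8) against 94.3 CPM (92.1 to 96.6), and Axin2 lower at 25.5 CPM (20.8 to 30.9) against 43.1 CPM (41.6 to 44.6). Wif1 and Notum were called higher as well, at 8.91 CPM (6.24 to 12.3) and 10.2 CPM (7.28 to 13.8). The 24 cells shared with the Shh gate held most of these UMIs. In them Notum had 135 CPM from 29 UMIs and Wif1 97.4 CPM from 21 UMIs, while the other 470 cells of the gate had 3.14 CPM and 3.92 CPM from 12 and 15 UMIs. These 470 cells were still above the ungated cells, 2.47-fold (1.15 to 4.99) for Notum and 4.97-fold (2.33 to 10.4) for Wif1. Their ratio to the ungated cells was 2.69 (2.34 to 3.07) for Sfrp1 and 0.640 (0.536 to 0.759) for Kremen2. For Axin2 it was 0.970 (0.760 to 1.23), so the lower Axin2 of the gate was not seen against ungated cells. Of 9 members measured, 3 were higher and 2 lower in the Foxa gate, where 4.28% of 10300 genes were higher and 4.06% lower, and without the Shh-gated cells on both sides 3 members passed in all, since Wif1 and Notum were then under 5 CPM in both groups. Inside the Shh gate, the cells with Foxa UMIs had less Kremen2 than those without, 83.5 against 166 CPM, a ratio of 0.503 (0.294 to 0.808), and the ratios of the other 9 members had intervals that include 1.

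The Irx1 gate, the dental cells, was compared with other cells of which many passed the Cxcl14 gate. Notum was called higher, at 6.95 CPM (5.61 to 8.53) against 3.42 CPM (2.98 to 3.90), and Znrf3 lower, at 55.1 CPM (51.2 to 59.2) against 85.4 CPM (83.2 to 87.7). Of 9 members measured, 1 was higher and 1 lower, where 2.67% of 10218 genes were higher and 3.95% lower. Without the Shh-gated cells Notum was under 5 CPM in both groups and thus not measured, and when cells that passed the Irx1 gate only were set against ungated cells, Znrf3 had a log2 ratio of 0.18, in the opposite direction. All cells of the Irx1 gate had 2.38-fold (2.12 to 2.67) the Axin2 of ungated cells. That level was within counting error of the one in the Cxcl14 gate, which shared 221 cells with the Irx1 gate. Wif1 was 8.23-fold (4.91 to 14.5) and Notum 5.47-fold (3.57 to 8.61) above the ungated cells. The Irx1 gate includes 84 cells of the Shh gate, whereas the ungated cells include none. These folds of Wif1 and Notum thus do not describe the Irx1-gated cells outside the Shh gate. Of those cells, 38 had a Wif1 UMI and 24 a Notum UMI, where the Irx1 gate held 1617 cells in all. Among the 3824 ungated cells, which were shallower, 17 had a Wif1 UMI and 22 a Notum UMI. Nkd1, Znrf3, Kremen2 and Rnf43 had ratios of 1.31 to 1.45 to the ungated cells with intervals above 1, and Sfrp1 had 0.620 (0.534 to 0.717).

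The Dmrt2 gate, with posterior markers, was below the other kept cells, many of which passed the Cxcl14 gate, in all 5 receptor-level and intracellular genes. Of these, 4 passed the criterion. Axin2 had 11.2 CPM (8.42 to 14.7) in the gate and 44.2 CPM (42.7 to 45.7) outside, a log2 ratio of -1.98 (-2.40 to -1.58). Nkd1, Znrf3 and Kremen2 had log2 ratios of -1.45 (-2.27 to -0.74), -1.44 (-1.69 to -1.20) and -1.30 (-1.52 to -1.09), and Rnf43, not called, -0.42 (-0.70 to -0.16). Sfrp2 was the exception, at 44.1 CPM (38.3 to 50.5) against 25.8 CPM (24.7 to 27.0), a log2 ratio of 0.77 (0.56 to 0.98), with a UMI in 26.6% (23.1 to 30.3) of the gated and 9.69% (6.37 to 14.0) of the Shh-gated cells. Against ungated cells the ratios were 0.502 (0.371 to 0.667) for Axin2, 0.638 (0.544 to 0.745) for Kremen2 and 0.749 (0.624 to 0.893) for Znrf3. Nkd1, at 0.604 (0.335 to 1.02), and Rnf43, at 1.03, had intervals that include 1. The lower Rnf43 of the gate was thus not seen against ungated cells. Sfrp2 had a ratio of 1.41 to the ungated cells, with an interval above 1. Dkk4 and Notum had 1 UMI each in the 617 cells, log2 ratios of -3.96 (-9.27 to -1.46) and -4.33 (-9.64 to -1.84) to the other kept cells. Those other cells include most of the Shh gate, where both genes were concentrated. Against ungated cells the ratios were 2.42 (0.0410 to 46.4) for Dkk4 and 0.167 (0.00408 to 1.01) for Notum, with intervals that include 1. Of 7 members measured, 1 was higher and 4 lower, where 3.61% of 10271 genes were higher and 4.19% lower. The median log2 ratio, with 1 CPM added, was -1.31 over all 10 members, including Dkk4, Wif1 and Notum, which were not measured. Over the genes measured it was 0.01, so these medians cover unlike sets.

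Co-detection of members was counted in cells thinned to 4100 UMIs, as the number of cells with a UMI of both genes divided by the number expected from the separate shares. Of the 45 pairs, 39 had at least 5 expected cells over all 10331 thinned E12.0 cells. The ratio was at least 1.5 in 13 and at most 1/1.5 in 8 of them, and every pair among these 8 included Sfrp1 or Sfrp2. With all UMIs these counts were 13 and 4 of 42 pairs, and in thinned cells without doublets 12 and 6 of 39. The share over pairs of other genes was not computed, so no count of pairs given here can be read as an excess. Dkk4 and Axin2 were found together in 45 cells where 12.9 were expected, a ratio of 3.50 (2.56 to 4.68), and Notum and Axin2 in 61 cells, a ratio of 3.33 (2.55 to 4.27). Axin2 and Sfrp1 met in 61 cells where 104 were expected, a ratio of 0.584 (0.447 to 0.750). Znrf3 and Kremen2, both frequent, came to 951 cells where 788 were expected, a ratio of 1.21 (1.14 to 1.28). Levels of the members differ between gates and, inside the Shh gate, with the number of Shh UMIs, and the part of these differences in the ratios was not tested. Inside the Shh gate (249 thinned cells) Dkk4 and Wif1 shared 24 cells, a ratio of 2.63 (1.72 to 3.83), Dkk4 and Notum 20 cells, a ratio of 1.92 (1.19 to 2.90), and Wif1 and Notum 29 cells, a ratio of 1.59 (1.09 to 2.23). Inside this gate 6 of 27 pairs with enough expected cells were at 1.5 or above and 0 at 1/1.5 or below. In the Cxcl14 gate (4779 thinned cells), Dkk4 and Axin2 had a ratio of 2.44 (1.62 to 3.52) and Znrf3 and Kremen2 1.06 (0.990 to 1.13).

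**Figure D4:**
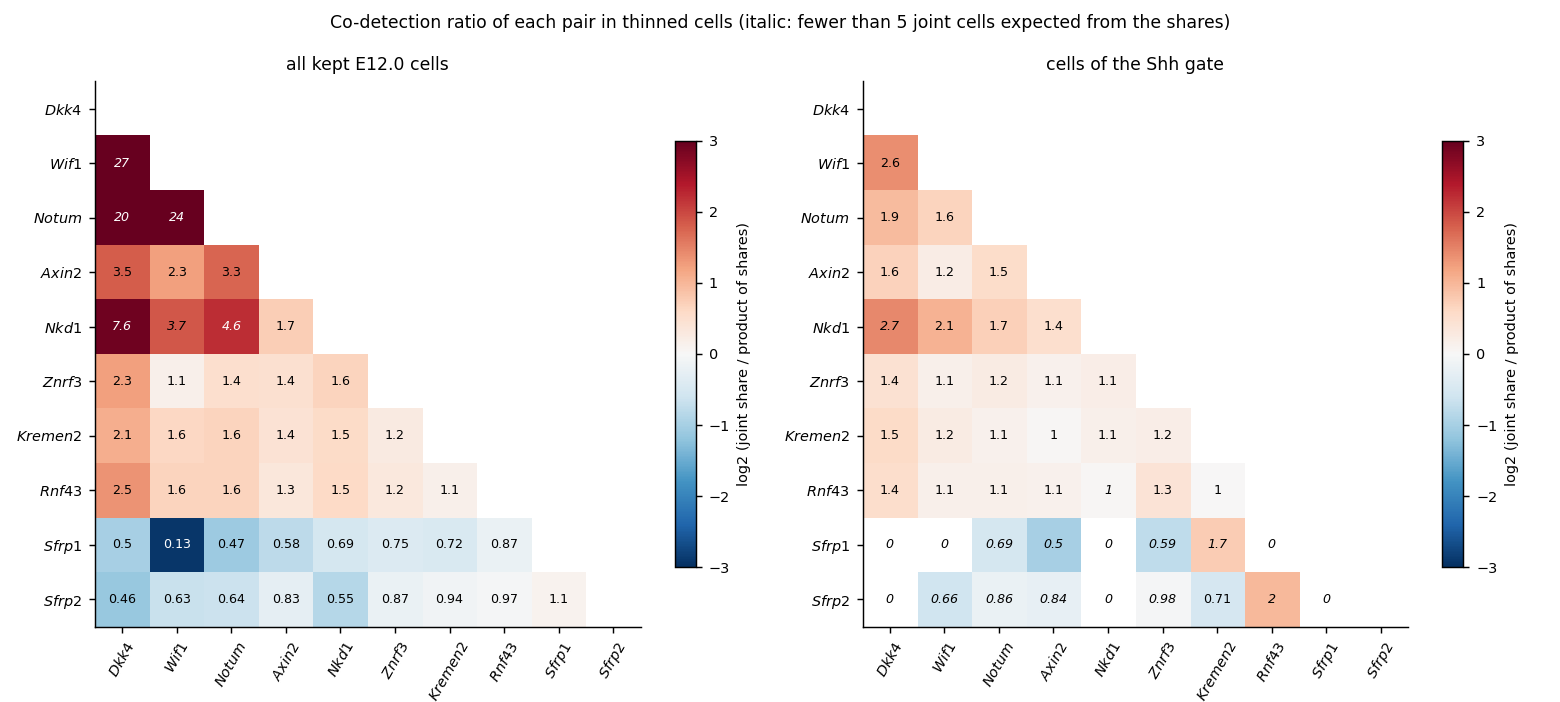
Ratio of observed to expected co-detection for each pair of members in thinned E12.0 cells, over all kept cells (left) and inside the Shh gate (right), on a log2 color scale with the ratio written in each field. Pairs of Dkk4, Wif1 and Notum are above 1 in both, at 1.59 to 2.63 inside the Shh gate.

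At E9.5, epithelial cells (at least 2 Epcam UMIs and more Epcam and Cdh1 than Prrx1, Twist1 and Pdgfra UMIs, 3291 cells) were compared with mesenchymal cells (at least 2 UMIs of Prrx1, Twist1 and Pdgfra, and none of Epcam, Cdh5 or Pecam1, 5638 cells). Median depth was 12763 and 15179.5 UMIs. The 7 epithelial markers, of which Cdh1 helped to set the epithelial group, summed to 1425 and 82.9 CPM. The 10 mesenchymal markers, 3 of which set the groups, summed to 123 and 1247 CPM, and the 4 red blood cell markers to 414 and 956 CPM. Of the other mesenchymal markers, Alx4 (4.69 against 0.596 CPM) and Lum (16.6 against 12.4 CPM) were higher in epithelium. Col1a1, Col1a2, Col3a1, Meox1 and Fbn2 were lower there. Red blood cell transcripts in both groups are RNA of another cell type, and their part in the members' values was not tested.

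Axin2 and Znrf3 were higher in the E9.5 epithelium and Nkd1 and Sfrp1 in the mesenchyme. Axin2 was measured at 18.0 CPM (16.8 to 19.3) in epithelium and 11.0 CPM (10.3 to 11.7) in mesenchyme, a log2 ratio of 0.71 (0.57 to 0.85). Znrf3 was at 15.6 CPM (14.5 to 16.9) against 7.27 CPM (6.70 to 7.88), a log2 ratio of 1.11 (0.94 to 1.27). The opposite order held for Nkd1, at 4.90 CPM (4.26 to 5.60) against 11.1 CPM (10.4 to 11.8), a log2 ratio of -1.18 (-1.40 to -0.96). Sfrp1 had 35.2 CPM (33.5 to 37.1) in epithelium and 101 CPM (98.5 to 103) in mesenchyme, a log2 ratio of -1.51 (-1.59 to -1.44). Sfrp2 was called neither at 14.3 CPM (13.2 to 15.5) and 13.4 CPM (12.6 to 14.2). Of 5 members measured, 2 were higher and 2 lower in epithelium, where 19.3% of 9836 genes were higher and 6.87% lower.

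The remaining members were under 5 CPM in both E9.5 groups. Rnf43 had 174 UMIs in epithelium, 4.00 CPM (3.43 to 4.64), and 9 in mesenchyme, 0.109 CPM (0.0500 to 0.208), with a UMI in 5.04% of epithelial and 0.160% of mesenchymal cells. Kremen2 had 44 UMIs, 1.01 CPM (0.735 to 1.36), and 4 UMIs, 0.0486 CPM (0.0133 to 0.125). Their intervals did not overlap between the groups. Dkk4 had 9 UMIs in epithelium and 0 in mesenchyme, where a count of 0, read as at most 3 UMIs, allows up to 0.0365 CPM and the exact interval reaches 0.0449 CPM. Wif1 had 16 and 18 UMIs and Notum 11 and 33, and the intervals of their ratios include 1. Dkk4, Wif1 and Notum thus had few UMIs at E9.5, and no epithelial cell had more than 1 UMI of any of them.

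Inside the E9.5 mesenchyme, cells with UMIs of Hand2, a transcription factor gene of the distal arch (899 cells), had higher Nkd1 and Axin2 than those without (4739 cells). Nkd1 was at 19.0 CPM (16.9 to 21.4) against 9.38 CPM (8.67 to 10.1), a ratio of 2.03 (1.76 to 2.34), and Axin2 at 17.7 CPM (15.6 to 20.0) against 9.57 CPM (8.85 to 10.3), a ratio of 1.84 (1.59 to 2.14). Notum had 18 UMIs in 899 cells and 15 in 4739, a ratio of 5.63 (2.68 to 12.0). Sfrp1 was lower with Hand2, a ratio of 0.694 (0.651 to 0.741). The 7 epithelial markers summed to 223 CPM in the Hand2-positive and 53.1 CPM in the Hand2-negative mesenchyme. Krt8 (96.0 against 20.3 CPM) and Krt18 (120 against 25.5 CPM) made up this difference, while Cdh1 was at 2.29 against 1.90 CPM, Cldn6 at 3.67 against 3.85 CPM, Perp at 0.831 against 0.856 CPM and Krt14 at 0.485 against 0.723 CPM, with Krt5 at 0 in the Hand2-positive cells. Sfrp1 was highest in cells with at least 2 UMIs of the neural crest gene Sox10 (487 cells, 469 of them also in the mesenchymal group), at 151 CPM (143 to 159), with a UMI in 87.5% (84.2 to 90.3) of these cells and 14.5% (10.4 to 19.4) of 256 endothelial cells (at least 2 UMIs of Cdh5 and Pecam1 and none of Epcam). After thinning to 3100 UMIs these shares were 36.8% and 3.17%. In endothelial cells, which had a median of 14196.5 UMIs, Axin2 was at 1.57 CPM (0.576 to 3.42) and Sfrp2 at 1.05 CPM (0.285 to 2.68). Nkd1 was the exception, at 10.7 CPM (7.70 to 14.5), a level that differed from the mesenchymal one by less than the counting error. Among the epithelial cells, those with Foxa2 or Pax1 UMIs (513 cells) had 1.71-fold (1.23 to 2.35) the Nkd1 of those without Foxa2, Pax1 or Shh, and Axin2, Znrf3 and Sfrp1 had ratios of 1.03, 1.02 and 1.08 with intervals that include 1, while Sfrp2 had 0.764 (0.598 to 0.964). The 4 red blood cell markers summed to 1096 CPM in the cells with Foxa2 or Pax1 and 282 CPM in those without, and their part in these ratios was not tested.

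**Figure D5:**
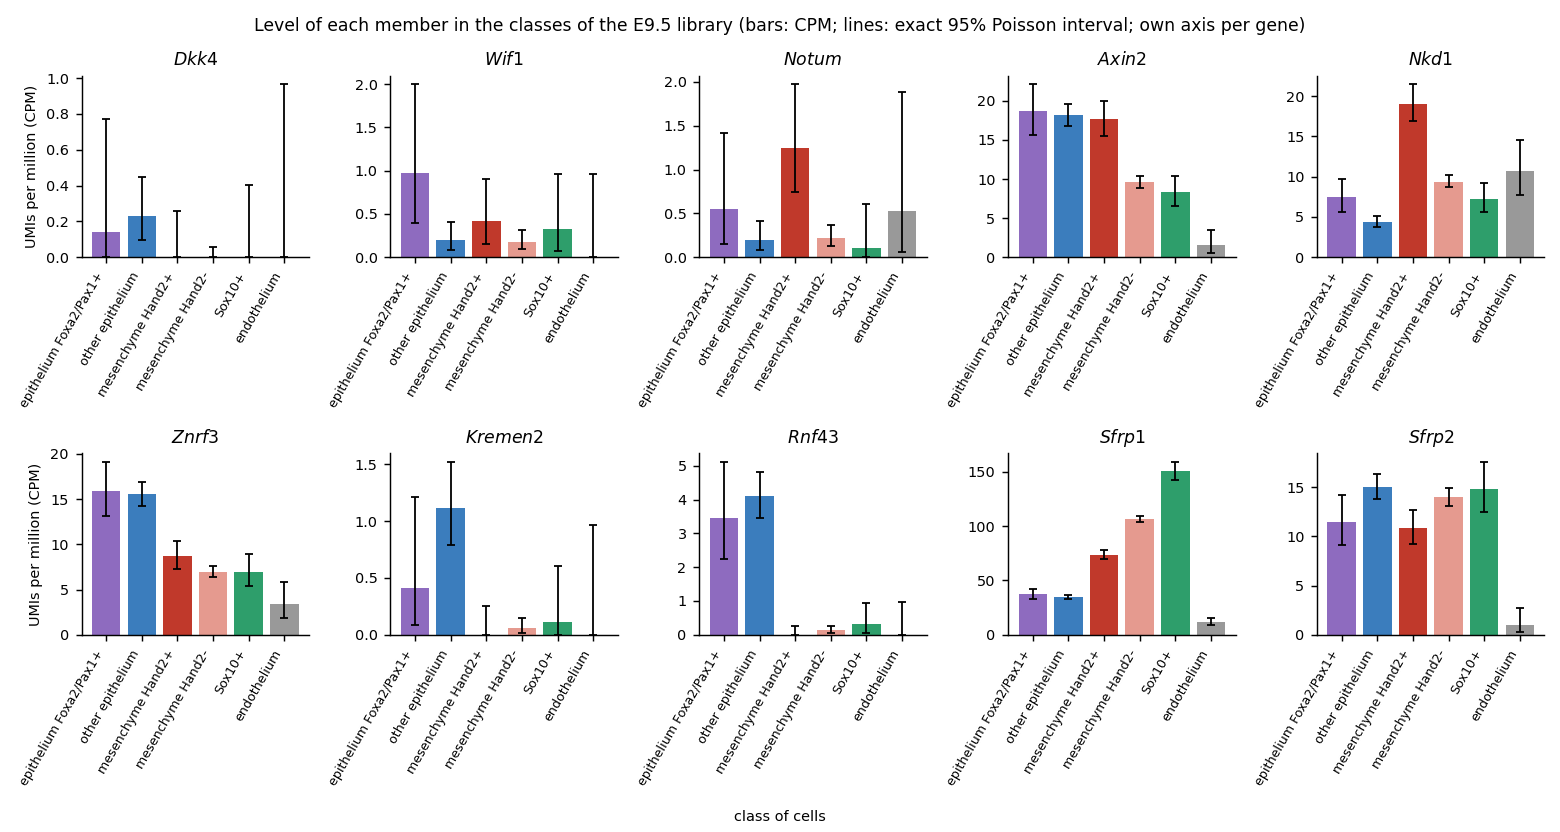
CPM of each member in classes of E9.5 cells, as bars from 0 with exact 95% Poisson intervals. Axin2 and Znrf3 are higher in epithelium than in mesenchyme as a whole, Nkd1 and Sfrp1 lower, and Dkk4, Wif1, Notum and Kremen2 stay under 2 CPM in each class.

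Between the stages, all 7 members measured passed the criterion. The comparison sets all kept E12.0 cells against the E9.5 epithelial group over the genes listed in both libraries. Kremen2 differed most, at 91.8 CPM (89.7 to 93.9) at E12.0 and 1.01 CPM (0.736 to 1.36) at E9.5, a log2 ratio of 6.50 (6.07 to 6.96). Rnf43 was at 33.9 CPM (32.6 to 35.2) against 4.01 CPM (3.43 to 4.65), a log2 ratio of 3.08 (2.86 to 3.31), and Znrf3 at 80.5 CPM (78.5 to 82.5) against 15.7 CPM (14.5 to 16.9), a log2 ratio of 2.36 (2.25 to 2.48). Axin2, Sfrp2 and Nkd1 followed with log2 ratios of 1.23 (1.12 to 1.35), 0.92 (0.79 to 1.05) and 0.87 (0.64 to 1.09). Sfrp1 was lower at E12.0, at 20.9 CPM (19.9 to 22.0) against 35.3 CPM (33.5 to 37.1), a log2 ratio of -0.75 (-0.86 to -0.65). Of the 7, 6 were thus higher and 1 lower, where 32.4% of 10486 genes were higher and 15.8% lower. The median log2 ratio, with 1 CPM added, was 1.89 over all 10 members, including Dkk4, Wif1 and Notum, which were not measured. It was 0.21 over the genes measured, so these medians cover unlike sets. The ratios of Dkk4, Wif1 and Notum, under 5 CPM at both stages, were 15.0, 12.4 and 15.9, from 9, 16 and 11 UMIs at E9.5. The E9.5 epithelial group of 3291 cells includes 513 with UMIs of Foxa2 or Pax1, which are endoderm markers. Stage, sorting, make-up of the epithelium, gene list and library cannot be told apart in this comparison.

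Other genes of the pathway were counted in 5 lists, chosen like the members with earlier results of these data known. In the Shh gate, where 9.04% of all genes measured were higher and 7.75% lower, 5 of 7 measured further inhibitors were higher and 1 lower. Dkk3, of the Dickkopf family, was at 61.2 against 7.87 CPM, and Apcdd1, a membrane inhibitor of WNT receptors, at 15.4 against 2.16 CPM. Sostdc1, which binds LRP co-receptors and BMP ligands, was lower at 74.2 against 356 CPM. Of 12 WNT ligands measured, 5 were higher, among them Wnt10a at 91.0 against 14.3 CPM and Wnt16 at 10.6 against 0.290 CPM, and 4 were lower, Wnt4, Wnt7a, Wnt7b and Wnt9b. Of 7 TCF/LEF factors and targets, 3 were higher, Lef1 at 382 against 149 CPM, Tcf7 at 20.7 against 6.95 CPM and Sp5 at 117 against 5.42 CPM, and 0 were lower. Of the 7 genes of R-spondins and their receptors, 3 were measured, 2 of which were higher, the receptor genes Lgr5 and Lgr6, and 0 lower. Of 14 WNT receptors measured, 1 was higher and 2 lower.

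The counts of ligands called differed between the other gates. Of 11 ligands measured, 10 were higher and 0 lower in the Cxcl14 gate, 0 higher and 10 lower in both the Foxa gate and the Dmrt2 gate, and 0 higher and 8 lower in the Irx1 gate. Over all genes measured, 3.86% were higher and 4.88% lower in the Cxcl14 gate, and the shares lower were 4.06% in the Foxa gate, 4.19% in the Dmrt2 gate and 3.95% in the Irx1 gate. Wnt9b, for example, was at 133 against 18.4 CPM in the Cxcl14 gate and 13.1 against 76.3 CPM in the Dmrt2 gate. The cells set against the Foxa, Dmrt2 and Irx1 gates include most cells of the Cxcl14 gate. Their counts of lower ligands are therefore not separate from the count of higher ligands in the Cxcl14 gate. Ligands were not compared with ungated cells. The further inhibitors varied less, with 0 of 6 past the criterion in the Cxcl14 gate, 1 in the Irx1 gate (Sostdc1, lower at 181 against 383 CPM), 1 in the Dmrt2 gate (Sostdc1, higher at 593 against 333 CPM) and 2 in the Foxa gate (Dkk3 higher at 25.0 against 8.43 CPM, Tle1 lower at 23.3 against 39.3 CPM). The receptor Fzd10 was at 102 against 18.1 CPM in the Cxcl14 gate, where 1 of 14 receptors was higher and 5 lower. At E9.5, where 19.3% of all genes measured were higher in epithelium and 6.87% lower, 5 of 6 ligands and 6 of 12 receptors were higher in epithelium and none lower, and among the 8 further inhibitors 4 were higher and 2 lower, Nkd2, the paralog of Nkd1, at 5.27 against 30.8 CPM in mesenchyme and Dact3, a Dishevelled-binding protein, at 3.96 against 18.7 CPM. Between the stages 3 of 9 further inhibitors were higher, close to the 32.4% of all genes measured, and 4 were lower, where 15.8% of all genes were. Dkk1 was at 0.116 against 12.8 CPM at E9.5, and Frzb, another secreted Frizzled-related protein, had no UMI in the E12.0 cells against 10.1 CPM.

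The genes whose values were most like those of a member across the 11355 E12.0 cells were named by Pearson correlation of log-normalized UMIs, where r was at least 0.2, as a description without a test. All values come from the same library, and depth and zeros are shared between genes. For Dkk4 they were Bmp2 (r = 0.37), Wif1 (0.32) and Scube1 (0.30), for Wif1 Shh (0.47), Notum (0.46) and Pcdh19 (0.38), and for Notum Shh (0.49), Wif1 (0.46) and Bmp2 (0.35). Znrf3 was most like Cxcl14 (0.35), Tfap2b (0.31) and Lmo1 (0.28), and Kremen2 most like Cxcl14 (0.28), Tfap2b (0.27) and Tnfrsf19 (0.24). For Sfrp1 the leading genes were Foxc1, Col9a1 and Fam150b, each at 0.29, and for Axin2 Lef1 (0.21). No gene reached 0.2 with Nkd1, Rnf43 or Sfrp2. Across the 12744 E9.5 cells, Sfrp1 was most like Nr2f1 (0.37), Cdh11 (0.34) and Twist1 (0.33), Nkd1 reached 0.22 with Col1a1, and no gene reached 0.2 with the other members.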

How the data were processed

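The authors deposited 1 matrix of raw UMI counts (genes by cell barcodes) per library, made with Cell Ranger from reads aligned to GRCm38 and limited to barcodes called cells. The labels name version 2.0.0, and the headers of the deposited matrices versions 3.1.0 (E12.0) and 6.1.2 (E9.5). Genes were matched between the libraries by Ensembl identifier.

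Cells were filtered as in the methods of the study (200 to 5500 genes and at most 10% mitochondrial UMIs). Counts were summed over each gate and divided by the UMIs of the gate, with no regression or clustering, so small gates give wide intervals (215609 UMIs in the 24 cells of the Shh and Foxa gates together, 82231296 in the E9.5 mesenchyme). Doublets were called with Scrublet in scanpy 1.11.5. Sums, exact intervals and figures were computed with Python 3.11.15, numpy 2.4.6, scipy 1.17.1, pandas 2.3.3 and matplotlib 3.10.9, with a seed of 1 for thinning and doublets. Thinning to 4100 UMIs (E12.0) and 3100 UMIs (E9.5) left out 1024 and 1233 shallower cells. The steps from counts to calls were tested on simulated data. For gene likeness, UMIs were scaled to 10000 per cell and log-transformed, and genes with a UMI in at least 1% of cells were compared. The members, gates and gene lists were chosen with earlier results of these data known. All 10 members are named, other pathway genes by list where they passed the size criterion, and the ventral, periderm, Hand2, Sox10 and endothelial classes describe the members further. Alternatives changed the filters, the doublets, the weighting of cells, the size criterion and the gates, and leaving out the Shh-gated cells was added after seeing the data.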

Additional observations from a re-analysis of the deposited data

How the results depend on the processing

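Of 409 values of called members under the alternatives, 369 kept their call and 40 did not. The shares over all genes measured are not given for the alternatives, here or above. No count of members under an alternative can therefore be read as an excess over such a share. With a fold of 2, the members past the criterion numbered 3 in the Foxa gate (5 as reported), 0 in the Irx1 gate (2 as reported), 2 in the Cxcl14 gate (5 as reported) and 4 between the stages (7 as reported), by construction of the stricter fold. With a minimum of 20 CPM they numbered 3 in the Foxa gate, 1 in the Irx1 gate and 1 between E9.5 epithelium and mesenchyme (4 as reported), since fewer members are measured. Without the Shh-gated cells, an alternative chosen after seeing the data, there were 3 in the Foxa gate and 1 in the Irx1 gate, as Wif1 and Notum in the former and Notum in the latter were under 5 CPM in both groups. Cells of the Foxa gate only, against ungated cells, gave 2. Co-detection at E9.5, with 0 of 11 pairs at 1.5 or above in thinned cells, gave 7 of 30 with all UMIs and 2 of 5 where each gene needed 2 UMIs, and the cause was not tested. The log2 difference of Wif1 in the Foxa gate was -0.49 with at most 5% mitochondrial UMIs, that of Axin2 there 0.035 with a gate 1 UMI higher, and that of Znrf3 in the Irx1 gate 0.18 against ungated cells. For these the cause was not tested. The counts for the Shh gate, between 7 and 10, and the Dmrt2 gate, between 4 and 6, moved by less than 1.5 times. At most 5% mitochondrial UMIs left 3254 of the 11355 E12.0 cells, and Nkd1 and Sfrp1 then missed the criterion between the stages. No paired analysis was possible because each stage has 1 library, and for the same reason no library could be left out. At E9.5, Dkk4, Wif1 and Notum each had fewer than 40 UMIs in any group compared, which leaves their intervals wide.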
